A study of Mus musculus with 6 samples.

Results

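Eosinophils, basophils and mast cells store cationic proteins and proteases in cytoplasmic granules and release them on activation. The genes described here encode 10 such proteins, chosen by name, and all 10 were found among the 56748 genes of the table. They are Prg2, Prg3, Epx, Ear1, Ear2 and Ear6 of the eosinophil granule, Mcpt8, Cpa3 and Prss34 of basophils and mast cells, and Gzmb. Ribosome profiling sequences the pieces of mRNA that ribosomes protect from a nuclease, so a gene's read count follows its ribosome footprints, and these depend both on the amount of mRNA and on how often it is translated. The footprints came from Lin-c-Kit+ mouse cells, which the labels call hematopoietic stem cells, collected 12 days after 4.5 Gy of irradiation, with 3 libraries from WT cells and 3 from Mov10 knockout cells. Both genotypes were irradiated and both were treated with cycloheximide, which stalls ribosomes. The labels give no strain, age or knockout allele and do not say whether the knockout is limited to some cells or whether each library is a separate animal, so p-values measure the spread between these libraries, which may be technical. Levels of mRNA were not analysed here.

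In marrow, all of these granule cells arise from progenitors that carry the receptor Kit, and the granule proteins are made in bulk while the cells are still immature. Eosinophil granules have a crystalline core of major basic protein, the product of Prg2, surrounded by eosinophil peroxidase and by secreted ribonucleases of the eosinophil-associated RNase (Ear) family. Basophil and mast cell granules hold serine proteases and a carboxypeptidase bound to the proteoglycan serglycin. GATA factors and C/EBP factors are known regulators of these lineages.

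Values are normalized reads, the read count of a gene divided by the size factor of its library, shown as the mean ± SD of a genotype (n = 3 libraries). A gene was called when its adjusted p (limma over all genes tested, Benjamini-Hochberg) was under 0.05. Depth went with genotype: WT libraries held 2260348 to 2499634 reads and knockout libraries 1118345 to 1352517, so that depth and genotype cannot be told apart. After thinning to equal depth, 6 of the members described below were called, 5 higher and 1 lower, as without thinning. Mov10, the gene named as knocked out, stood at 107 ± 3.13 in WT against 62.1 ± 23.4 in the knockout and was not called (adjusted p = 0.0598). The library labelled knockout replicate 2 held 89.0 normalized reads of it and the other knockout libraries 51.0 and 46.3, and without that library Mov10 was called lower (adjusted p = 0.00747). With all libraries Mov10 was also called lower with library totals (adjusted p = 0.0249) and over genes with a mean of at least 10 (adjusted p = 0.0466). Kit was read at 1099 ± 15.8 in WT and 1122 ± 35.7 in the knockout, while the stem cell markers Procr and Slamf1 lay between 0 and 1.95 normalized reads in every library. In these bulk samples, fewer cells of a type, less RNA per cell and less translation of that RNA cannot be told apart.

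Of the 10 members, 5 were higher in the knockout (Prg2, Prg3, Ear6, Mcpt8 and Cpa3), 1 was lower (Ear1), and Epx, Ear2, Prss34 and Gzmb did not pass. Among all 17114 genes tested, 21.2% were called, 10.3% higher and 10.9% lower. Abundant genes were called more often: of the 4056 genes that averaged 100 or more normalized reads, which include 8 members, 43.5% were called, 28.9% higher and 14.6% lower. The median log2 fold change of those 8 members was 0.57, beside 0.11 for the 4056 genes and -0.17 for all genes tested. These medians are not matched for abundance. The median was 0.02 for genes of 100 to 300 normalized reads, 0.28 for those of 300 to 1000 and 0.77 for those of 3000 or more. With cyclic loess, which removes the trend of fold change with abundance, 3 members were higher and 4 lower, and with library totals 3 rose and 2 fell. Leaving out WT replicates 1, 2 and 3 in turn left 3, 2 and 3 called members, each of them higher, and 0 members were lower without knockout replicate 2, against 3 without knockout replicate 3. In the authors' deposited table, 6 of the 10 members have an adjusted p under 0.05.

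**Figure D1:**
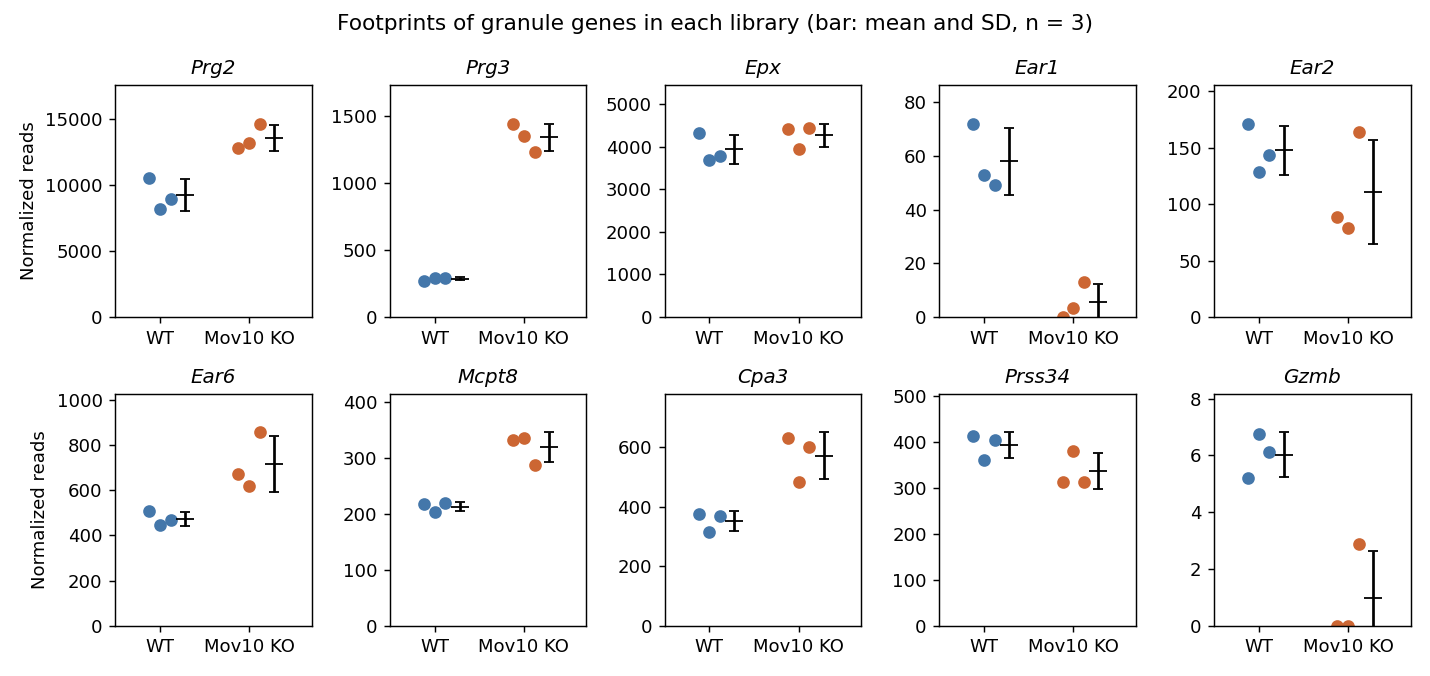
Normalized reads (vertical axes, from 0) of the 10 granule genes in each WT (blue) and Mov10 knockout (orange) library, with mean and SD (n = 3, bars cut at 0). The groups do not overlap for Prg2, Prg3, Ear1, Ear6, Mcpt8, Cpa3 and Gzmb, and they overlap for Epx, Ear2 and Prss34. A lack of overlap, in either direction, was common, with 39.8% of all genes tested showing it.

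Prg2 encodes major basic protein, the toxic cationic protein of the eosinophil crystal core. Prg2 (chromosome 2, 84810805 to 84813976, GRCm39) had 10531, 8175 and 8912 normalized reads in the WT libraries and 12803, 13147 and 14638 in the knockout libraries. Every knockout library was above every WT library, as was true in one or the other direction of 39.8% of all genes tested. Prg2 was 1.47-fold higher in the knockout (9206 ± 1205 in WT and 13529 ± 975 in the knockout, log2 fold change 0.56, SE 0.09, adjusted p = 0.00376). The direction depended on the scaling, since the log2 fold change was -0.41 after cyclic loess (adjusted p = 0.00469). The 24 tested genes that averaged 3000 or more normalized reads, Prg2 among them, had a median log2 fold change of 0.77, above that of Prg2. Per kb of gene length Prg2 ranked 1 of 16979 protein-coding genes with reads in both genotypes.

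Prg3, which encodes a less basic homologue of major basic protein, lies 4.6 kb from the end of Prg2 on the same strand (chromosome 2, 84818559 to 84824230). Its footprints numbered 270.1, 292 and 289 normalized reads in the WT libraries and 1434, 1349 and 1229 in the knockout libraries, so the groups were far apart. Prg3 was 4.72-fold higher (283 ± 11.7 in WT and 1337 ± 103 in the knockout, log2 fold change 2.23, SE 0.09, adjusted p = 4.45e-06). The log2 fold change of Prg3 lay between 1.91 and 2.29 over 16 alternatives and passed in all of them. Genes of its abundance (300 to 1000 normalized reads) had a median of 0.28, with quartiles of -0.16 and 0.69.

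Epx encodes eosinophil peroxidase, a granule enzyme that can make hypobromous acid. Epx (chromosome 11, 87754826 to 87766362) had 4332, 3701 and 3791 normalized reads in the WT libraries and 4429, 3955 and 4437 in the knockout, and the groups overlapped. The ratio of means was 1.08 (log2 fold change 0.12, 95% confidence interval -0.05 to 0.29, adjusted p = 0.298). Its sign turned with the scaling: the log2 fold change of Epx was -0.11 with library totals (adjusted p = 0.263) and -0.63 after cyclic loess (adjusted p = 0.000431).

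**Figure D2:**
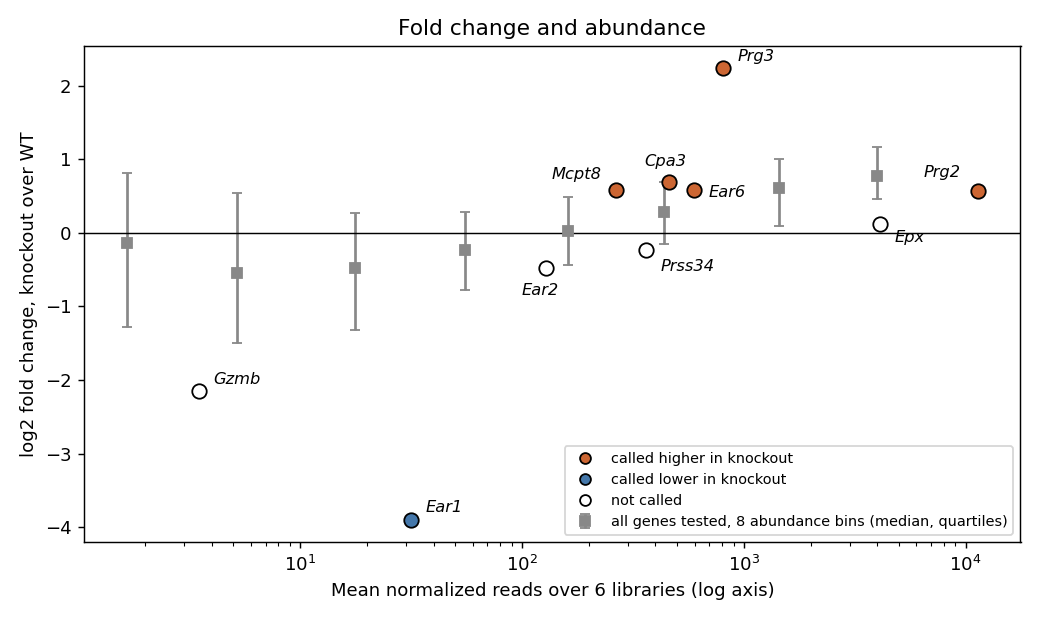
The log2 fold change of each granule gene (vertical axis, knockout over WT) against its mean normalized reads over 6 libraries (horizontal log axis), with medians and quartiles of all genes tested in 8 bins of abundance (grey). The bin medians run from -0.55 at low abundance to 0.77 at the highest, and Prg3, Mcpt8 and Cpa3 lie above the quartiles of their bins, Epx, Ear1, Ear2, Prss34 and Gzmb below them, and Prg2 and Ear6 between them. After cyclic loess, Prg2 and Epx were lower in the knockout, and with library totals the log2 fold change of Epx was -0.11.

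The Ear genes are close copies of each other, so their start regions are shown for how alike they are, before their values. Each line gives 150 bases before to 20 bases after the start site from RefSeq (GRCm38.p6), at chr14:43819620-43819789 on the minus strand for Ear1, chr14:44102504-44102673 on the plus strand for Ear2 and chr14:51853618-51853787 on the plus strand for Ear6. Capitals mark matches to TTNCNNAA, the C/EBP motif, and to GATAA or its reverse complement TTATC, the GATA motif.
Ear1: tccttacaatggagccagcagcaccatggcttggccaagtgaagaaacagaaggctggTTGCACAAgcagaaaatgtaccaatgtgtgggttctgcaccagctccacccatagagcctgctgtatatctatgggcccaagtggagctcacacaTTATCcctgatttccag
Ear2: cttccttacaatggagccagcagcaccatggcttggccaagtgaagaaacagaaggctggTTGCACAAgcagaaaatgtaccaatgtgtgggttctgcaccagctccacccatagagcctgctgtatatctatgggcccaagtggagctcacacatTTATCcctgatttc
Ear6: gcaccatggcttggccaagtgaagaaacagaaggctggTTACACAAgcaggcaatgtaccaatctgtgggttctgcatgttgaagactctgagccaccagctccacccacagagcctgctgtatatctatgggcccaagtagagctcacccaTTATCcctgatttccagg

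Over the full windows of 300 bases, Ear1 and Ear2 were identical at 294 of 297 aligned bases. Ear1 and Ear6 were identical at 259 of 279, and Ear2 and Ear6 at 256 of 276. With the start site as position 1, the C/EBP match begins at -92 in Ear1, -90 in Ear2 and -112 in Ear6, and the GATA match at 4, 7 and 3.

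Ear1 had 72.1, 52.8 and 49.1 normalized reads in the WT libraries and 0, 3.23 and 13.0 in the knockout libraries. These rest on 111, 86 and 72 reads in WT and 0, 2 and 9 in the knockout, and no knockout library reached a WT library. Ear1 (chromosome 14, 44056222 to 44112974) was 10.7-fold lower in the knockout by the means (58.0 ± 12.3 in WT and 5.42 ± 6.78 in the knockout). The ratio of summed reads, knockout over WT at equal depth, was 0.0923 with a counting interval of 0.0455 to 0.168 (95%, exact). Its log2 fold change was -3.90 (SE 0.89, adjusted p = 0.0171), a value that depends on the pseudocount of 1, and with a pseudocount of 0.1 Ear1 did not pass (adjusted p = 0.0722). The call was also lost without WT replicates 1, 2 and 3 (adjusted p = 0.105, 0.0940 and 0.0866) and without knockout replicate 2 (adjusted p = 0.0541), each time with Ear1 lower in the knockout.

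Ear2 (chromosome 14, 44340111 to 44340991), which encodes an RNase like that of Ear1, had 171, 128 and 144 normalized reads in the WT libraries and 88.5, 79.3 and 164 in the knockout. Knockout replicate 3 lay within the WT range and the other knockout libraries below it. Ear2 did not pass (148 ± 21.8 in WT and 110.4 ± 46.2 in the knockout, log2 fold change -0.48, 95% confidence interval -1.12 to 0.15, adjusted p = 0.260). Without knockout replicate 3 it passed as lower (log2 fold change -0.80, adjusted p = 0.0232). Ear2 overlaps 1 other gene with reads, Gm49101, which held at most 7.50 normalized reads in a library.

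Ear6 (chromosome 14, 52091156 to 52092100), the most read of these RNase genes, had 508, 446 and 468 normalized reads in the WT libraries and 672, 618 and 857 in the knockout. All knockout libraries were above all WT libraries, with knockout replicate 3 the highest. Ear6 was 1.51-fold higher (474 ± 31.8 in WT and 715 ± 125 in the knockout, log2 fold change 0.58, SE 0.13, adjusted p = 0.0156). The call was lost with library totals (adjusted p = 0.0771), after cyclic loess (adjusted p = 0.185) and without WT replicates 1, 2 and 3 (adjusted p = 0.0550, 0.0885 and 0.0826), with Ear6 higher each time. Ear genes are near copies, and how reads that match several of them were counted is not given in the sources used here, so the split of reads among Ear1, Ear2 and Ear6 is uncertain.

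Mcpt8 encodes a basophil granule protease and Cpa3 the carboxypeptidase shared by mast cells and basophils. Mcpt8 (chromosome 14, 56319623 to 56322730) had 217, 204 and 219 normalized reads in the WT libraries and 333, 336 and 288 in the knockout, so the groups did not overlap. It was 1.50-fold higher in the knockout (213 ± 8.16 in WT and 319 ± 26.9 in the knockout, log2 fold change 0.58, SE 0.12, adjusted p = 0.0117). Mcpt8 was not called with library totals (adjusted p = 0.0675) or without WT replicates 1, 2 and 3 (adjusted p = 0.0501, 0.0622 and 0.0564).

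Cpa3 (chromosome 3, 20269784 to 20296345) had 374, 314 and 369 normalized reads in the WT libraries and 630.3, 482 and 601 in the knockout. Knockout replicate 2 was the lowest of its group and still above every WT library. Cpa3 was 1.62-fold higher (352 ± 33.2 in WT and 571 ± 78.4 in the knockout, log2 fold change 0.69, SE 0.13, adjusted p = 0.00809), and its call was lost without WT replicate 2 (adjusted p = 0.0537).

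Prss34 encodes a tryptase-like serine protease of basophils and mast cells. Prss34 (chromosome 17, 25517368 to 25519139) had 413, 359.6 and 403 normalized reads in the WT libraries and 312, 380.1 and 313 in the knockout. Knockout replicate 2 lay within the WT range and the other knockout libraries below it. Prss34 did not pass (392 ± 28.3 in WT and 335 ± 39.0 in the knockout, log2 fold change -0.23, 95% confidence interval -0.50 to 0.05, adjusted p = 0.220). It passed as lower with library totals (log2 fold change -0.46, adjusted p = 0.0264) and after cyclic loess (log2 fold change -0.44, adjusted p = 0.0333).

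Gzmb encodes granzyme B, a protease of cytotoxic lymphocytes that mast cells can also make. Gzmb (chromosome 14, 56496295 to 56499717) had 8, 11 and 9 reads in the WT libraries and 0, 0 and 2 in the knockout libraries, so it is a gene at the edge of detection here. The ratio of summed reads, knockout over WT at equal depth, was 0.161 with a counting interval of 0.0186 to 0.639 (95%, exact). In the fit across genes it did not pass (log2 fold change -2.15, SE 0.73, adjusted p = 0.0705), and it passed as lower without knockout replicate 3 (adjusted p = 0.0111), which held both knockout reads.

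**Figure D3:**
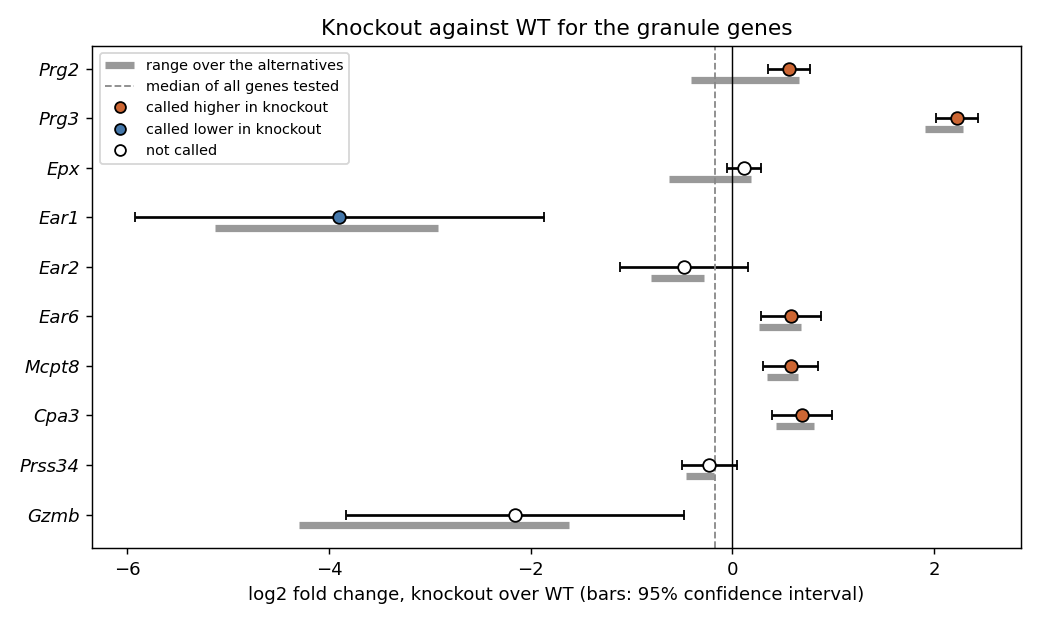
The log2 fold change of each granule gene (knockout over WT, horizontal axis) with its 95% confidence interval, filled where called, and the range over the alternatives as a grey bar (16 alternatives, 14 for Gzmb). The grey bars of Prg2 (under cyclic loess) and Epx (under cyclic loess and library totals) cross 0, and the bar of Prg3 lies between 1.91 and 2.29.

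The windows of Prg3 and Cpa3 are shown as those of the eosinophil member and of the mast cell and basophil member with the largest rise. They lie at chr2:84988065-84988234 on the plus strand and chr3:20242162-20242331 on the minus strand (RefSeq, GRCm38.p6), from 150 bases before to 20 after the start, with capitals as for the Ear genes and also for TATAAA, the TATA box.
Prg3: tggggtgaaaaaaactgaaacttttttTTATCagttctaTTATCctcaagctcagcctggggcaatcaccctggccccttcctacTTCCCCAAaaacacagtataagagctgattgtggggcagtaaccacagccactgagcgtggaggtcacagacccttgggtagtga
Cpa3: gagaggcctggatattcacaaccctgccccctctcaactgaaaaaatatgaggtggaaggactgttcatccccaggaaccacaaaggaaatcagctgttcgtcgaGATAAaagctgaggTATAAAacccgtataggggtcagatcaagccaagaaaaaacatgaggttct

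The GATA motif GATAA (both strands) was found in 6 of the 9 member windows of 300 bases, those of Prg3, Cpa3, Ear1, Ear2, Ear6 and Prss34, and in 25.4% of the 32851 windows of the table. Prg3 holds it at -123 and -111, and Cpa3 at -45. A match describes these letters and is not a measured binding site. The windows of Ear1, Ear2 and Ear6 are near copies, each with a GATA and a C/EBP match, so their matches are not independent. The C/EBP motif TTNCNNAA was in 4 of the 9 windows and 40.7% of all, TATAAA in 2 (Cpa3 and Epx) and 13.6% of all, and the ETS motif GAGGAA, searched for PU.1, in 1 (Mcpt8) and 28.3% of all. All motifs were searched on both strands, and no matches of different motifs overlapped in these windows. Of the members called higher, Prg3, Cpa3 and Ear6 hold a GATA match, Mcpt8 holds none, and Prg2 had no window to search. Ear1, called lower, holds one, as do Ear2 and Prss34, which were not called, while Epx and Gzmb, also not called, hold none.

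Levels of different genes were compared per kb of gene length, in normalized reads per kb. That length was deposited with the values and was not limited to the coding part, so an order per kb of coding length could differ. In WT the order was Prg2 (10985.5 ± 1438), Epx (1440 ± 125), Ear6 (502 ± 33.7), Prss34 (321 ± 23.2), Prg3 (299 ± 12.3), Cpa3 (232 ± 21.9), Mcpt8 (214 ± 8.18), Ear2 (206 ± 30.4), Ear1 (79.4 ± 16.9) and Gzmb (4.20 ± 0.546). The ranges of Prss34 and Prg3 overlapped, as did those of Cpa3 and Mcpt8 and of Mcpt8 and Ear2. In the knockout Prg3 stood at 1409 ± 109, in a range that overlapped that of Epx (1561 ± 101), and Prss34 (275 ± 32.0) came after Cpa3 (376 ± 51.7) and Mcpt8 (319.6 ± 27.0), though the range of Mcpt8 overlapped both. The 6 eosinophil members held 0.912% ± 0.0939 of all reads in WT and 1.10% ± 0.0622 in the knockout, most of them on Prg2. The 3 basophil and mast cell members held 0.0619% ± 0.00408 in WT and 0.0675% ± 0.00243 in the knockout.

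Ratios of members within a library do not depend on the size factor of a library. They are given for 6 pairs chosen after their values were seen, as a description with no test, since the choice fixed that the genotypes do not overlap. Prg3 over Prg2 was 0.0312 ± 0.00511 in WT and 0.0995 ± 0.0143 in the knockout. Epx over Prg2 was 0.430 ± 0.0210 in WT and 0.317 ± 0.0254 in the knockout.

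Within the Ear family, Ear1 over Ear2 was 0.391 ± 0.0434 in WT and 0.0402 ± 0.0398 in the knockout, and Ear2 over Ear6 was 0.311 ± 0.0248 and 0.150 ± 0.0352. Against Prss34, Cpa3 went from 0.899 ± 0.0225 to 1.74 ± 0.408 and Mcpt8 from 0.545 ± 0.0208 to 0.957 ± 0.0948.

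**Figure D4:**
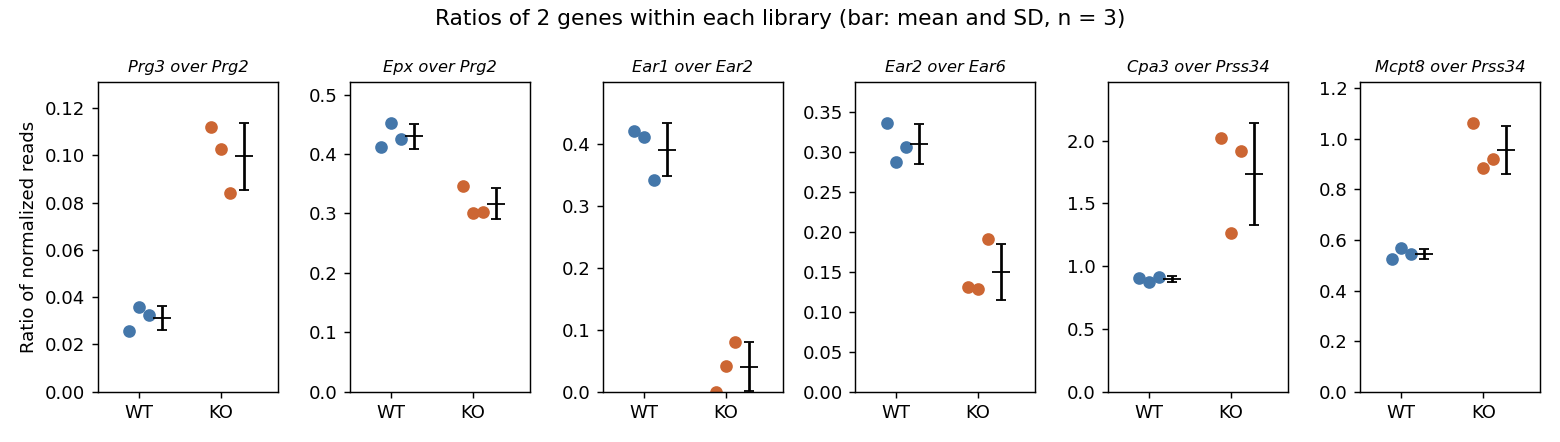
Ratio of the normalized reads of 2 granule genes within each library (vertical axes, from 0), for WT (blue) and Mov10 knockout (orange), with mean and SD (n = 3). In all 6 panels, chosen after their values were seen, the WT and knockout libraries do not overlap, with Prg3 over Prg2, Cpa3 over Prss34 and Mcpt8 over Prss34 higher and the others lower in the knockout.

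Most genes of the related lists were not called. Over 7 lists of lineage receptors and regulators, granule and protease genes, and markers of cytotoxic T and NK cells (129 genes, members left out, 98 tested), 67 were not called, 18 were higher and 13 lower in the knockout. Of the 98 tested, 31 were called, beside 21.2% of all genes tested. Among genes averaging 100 or more normalized reads, the share called was 43.5%. Without WT replicates 1, 2 and 3 in turn, 12, 11 and 11 of the listed genes were called, and with library totals 10 were higher and 19 lower. Alox15, Alox5, Ap3b1, Cd2, Irf8, Prtn3, Rab27a and Serpinb1a, 8 of the 31, kept their call in all alternatives.

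Of 20 tested receptor genes, 3 were higher and 2 lower, with a median log2 fold change of -0.29. The balance turned with the scaling, to 1 higher and 5 lower with library totals and 2 higher and 5 lower after cyclic loess. Il5ra, the alpha chain of the interleukin-5 receptor that drives eosinophil growth, rose from 14.4 ± 1.92 to 46.6 ± 9.96 (adjusted p = 0.0175). Il1rl1, the interleukin-33 receptor of mast cells, eosinophils and basophils, rose 1.60-fold and the integrin Itgb7 1.59-fold. Siglecf, an inhibitory lectin of the eosinophil surface, fell from 116 ± 7.81 to 52.1 ± 13.2 (adjusted p = 0.0114). Fcer1g, the signalling chain shared by Fc receptors, fell from 70.3 ± 9.33 to 7.07 ± 7.39. Each of these 5 receptor calls was lost without WT replicate 1, without WT replicate 2 and without WT replicate 3 (adjusted p = 0.0568 to 0.113). Fcer1a, the IgE-binding chain, had 23.0 ± 1.57 in WT and 44.1 ± 14.9 in the knockout (adjusted p = 0.149), and Kit was not called.

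Among 21 lineage transcription factors, 4 were higher and 3 lower, and with library totals 2 and 4. Cebpe, a C/EBP factor needed for granule protein genes, rose 1.71-fold (adjusted p = 0.0193), Spi1, which encodes PU.1, rose 1.64-fold, Stat5b, a relay of interleukin-3 and interleukin-5 signals, 1.83-fold and Irf4 2.76-fold. Irf8, known for monocyte and also eosinophil and basophil development, fell from 603 ± 5.79 to 313 ± 44.9 (adjusted p = 0.00115). Cebpb fell 2.64-fold and Id2 3.06-fold. Gata1, at 78.0 ± 4.49 in WT against 97.1 ± 21.4 in the knockout, and Gata2, at 61.5 ± 4.58 and 55.1 ± 17.5, were not called. The calls of Cebpe, Spi1, Stat5b, Irf4, Cebpb and Id2 were lost each time WT replicate 1, 2 or 3 was left out, and that of Irf8 was kept.

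In the list for granule cargo binding, sorting and release, 5 of 22 tested genes were higher and 5 lower. Scaling to library totals gave 2 higher and 6 lower. After thinning to equal depth 3 were higher and 3 lower, and Cd9, Vamp8, Stx11 and Unc13d were not called (adjusted p = 0.0508 to 0.127). Rab27a, a GTPase that brings granules to the membrane, rose from 140.2 ± 2.89 to 372 ± 27.3 (adjusted p = 0.000139). Ap3b1, an adaptor subunit for sorting to granules, rose 1.94-fold and Vamp8, a SNARE of granule fusion, 2.11-fold. The tetraspanins Cd63 and Cd9 rose 1.53-fold and 1.64-fold. Srgn, the serglycin core protein that binds granule proteases, fell from 219 ± 7.60 to 95.3 ± 34.0 (adjusted p = 0.0133). Serpinb1a, an inhibitor of neutrophil proteases, fell 1.73-fold, and the release factors Unc13d, Stx11 and Lyst fell 1.34-fold, 2.58-fold and 1.37-fold. Hdc, which makes histamine, had 337 ± 13.6 in WT, 365 ± 40.3 in the knockout, and was not called. Of these genes, Rab27a, Ap3b1 and Serpinb1a passed under all 16 alternatives, and each other called gene of the list lost its call without WT replicate 2 and without WT replicate 3.

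**Figure D5:**
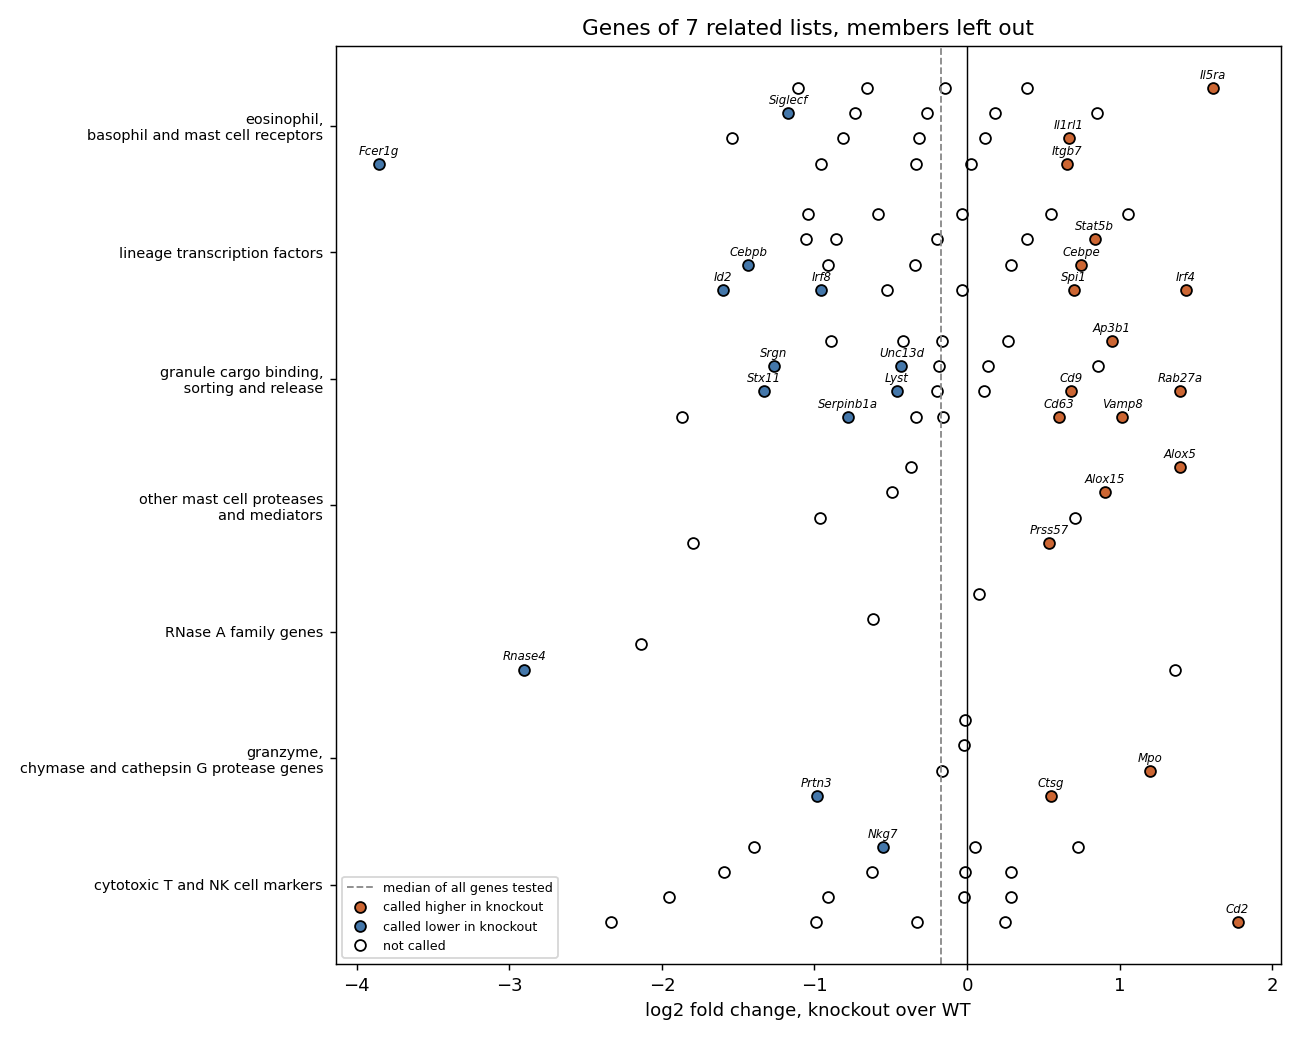
The log2 fold change (knockout over WT, horizontal axis) of every tested gene of 7 lists, on lineage receptors, regulators, granule and protease genes and cytotoxic cell markers, with called genes filled and named. Each list spans both sides of 0, 67 of the 98 genes were not called, and the called genes run from Fcer1g at -3.86 to Cd2 at 1.77. After cyclic loess, Ctsg was not called and its log2 fold change was -0.0050.

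Mast cell proteases other than the members were hardly read. In the list of other mast cell proteases and mediators, 8 of 20 genes were tested, 3 were higher and 0 lower, and 6 had no read in any library. Alox5, which starts leukotriene synthesis, rose from 156 ± 2.87 to 413 ± 4.57 (adjusted p = 7.99e-05), Alox15, a lipoxygenase found in eosinophils, rose 1.89-fold and Prss57, a serine protease of myeloid granules, 1.46-fold. Of 14 other genes of the RNase A family, 5 were tested, and Rnase4 was lower, with 6.49, 4.30 and 9.54 normalized reads in WT and none in the knockout. Against a floor of 3 reads per library Rnase4 was at least 1.54-fold lower, and it was not called by DESeq2 (adjusted p = 0.0537).

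Ctsg, a neutrophil granule protease whose gene lies 14.6 kb from Mcpt8, rose from 1429 ± 146 to 2086 ± 80.5 (adjusted p = 0.00254). Mpo, the peroxidase of neutrophil granules, rose 2.29-fold and Prtn3 fell 1.99-fold. In this list of granzymes, chymases and neutrophil granule enzymes, 2 of 6 tested genes were higher and 1 lower, and after cyclic loess 0 were higher and 2 lower. Gzma was not called, with 16.0 ± 7.38 in WT against 15.6 ± 6.63 in the knockout.

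Of 17 tested markers of cytotoxic T and NK cells, Cd2 was higher (3.53-fold, adjusted p = 0.00390) and Nkg7 lower (1.47-fold, adjusted p = 0.0170, a call lost each time WT replicate 1, 2 or 3 was left out). The summed level of the 8 defining markers of these cells was 330.2 to 408 normalized reads in WT and 259 to 274 in the knockout, most of it Nkg7, and 5 of the 8 were read in all libraries. Markers of other cells also differed in their summed level: erythroid genes held 601 to 634 in WT and 1719 to 1829 in the knockout, B cell genes 220.1 to 228 and 415 to 463, and monocyte and macrophage genes 824 to 970.0 and 679 to 755. The erythroid list was not uniform, since Hba-a1 went from 23.0 ± 4.42 to 0.539 ± 0.934. Nor was the monocyte and macrophage list. There Ly6c2 went from 324 ± 40.1 to 21.4 ± 21.2 and Cd68 from 36.5 ± 11.1 to 16.4 ± 11.8. The means of its other genes were higher in the knockout: Csf1r (306 ± 20.0 and 401 ± 59.2), Adgre1 (169 ± 9.54 and 223 ± 18.9), C1qa (36.9 ± 4.70 and 40.8 ± 11.4) and Ms4a7 (6.29 ± 1.06 and 13.2 ± 14.2). Neutrophil genes summed to 27641 to 32961 in WT and 42738 to 44885 in the knockout, and without Mpo to 16187 to 18728 and 13889 to 15030.0, with S100a8 at 2246 ± 101 and 371 ± 57.4. Their part in the results for the granule genes was not tested. The 4 eosinophil markers that are no members (Siglecf, Ccr3, Il5ra and Alox15) summed to 439 to 469 in WT and 497 to 754 in the knockout, most of it Alox15. Without Alox15 the other 3 summed to 179 to 195 in WT and 89.0 to 197 in the knockout, ranges that overlap. The 6 such basophil and mast cell markers summed to 562 to 640.1 and 532 to 611.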

How the data were processed

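Footprints 24 to 36 nt long make up the 3 WT and 3 Mov10 knockout libraries, from cells irradiated with 4.5 Gy, per the labels' protocols. The authors deposited, as signal values, reads per gene divided by a size factor for each library, which the values themselves show, since 99.98% of values in genes with reads were whole multiples of that library's smallest value within 0.05 of a read. The deposited log2 fold changes and the deposited p-values come from the authors' own test, which is not given in the sources used here. The submitters' processing notes name GRCm39, while the aligner, the counting tool and the use of strand were not given in the sources used here. Because the deposited unit was not raw counts, limma 3.58.1 in R 4.3.3 was fitted to log2(value + 1) with a variance trend, over 17114 genes averaging 1 normalized read or more, and p-values were adjusted over all of them with the Benjamini-Hochberg method at a threshold of 0.05. Whole reads were recovered for edgeR 4.0.16 and DESeq2 1.42.0, which served as alternatives, and edgeR called 3213 of 10891 genes. A WT library held 2260348 to 2499634 recovered reads and a knockout library 1118345 to 1352517, and counting intervals and floors of 3 reads cover counting error only, since the reads carry no molecular identifiers.

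The 5 genes whose values were not whole multiples in their own library were left out, and no member is among them. The members and the gene lists were chosen with earlier results of these data known. The rule for names took all members and, in each other list, every called gene up to 5 per direction. The tests were checked on simulated data for knockout against WT. There limma over 17216 genes recovered 27% of genes changed 2-fold and 99% of those changed 4-fold. The changed genes were drawn from those with a mean of at least 10 normalized reads, so recovery of lower genes such as Gzmb (mean 3.50) was not tested. Each simulated gene had the same dispersion and 17016 genes were unchanged, so these shares need not hold for the real libraries. Same-numbered libraries of the genotypes did not deviate together (correlations -0.029, -0.0055 and -0.021), so the numbers were not taken as pairs. Promoter windows came from RefSeq (GRCm38.p6), which held 9 of the 10 members (all but Prg2), and were aligned with Biopython 1.88. Figures were drawn with matplotlib 3.10.9 in Python 3.11.15.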

Additional observations from a re-analysis of the deposited data

How the results depend on the processing

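The fit was repeated under 16 alternatives. Of the 6 called members, Prg3 kept its direction and its call in all of them. Cyclic loess, which by its construction sets the average difference at each abundance to 0, turned the log2 fold change of Prg2 from 0.56 to -0.41 and that of Epx from 0.12 to -0.63, and that of Ctsg from 0.55 to -0.0050. Library totals gave Epx -0.11. Cyclic loess left 3 members higher and 4 lower, where the authors' scaling gave 5 and 1. With library totals 3 members were higher and 2 lower, and 10 listed genes were called higher, against 18. A pseudocount of 0.1 left 0 members lower. Leaving out each library in turn gave 2 to 8 called members, 2 to 5 of them higher and 0 to 3 lower, and 11 to 36 called genes of the other lists, 7 to 19 of them higher and 4 to 18 lower. The low ends of the totals and of the higher counts came from leaving out WT libraries, and 0 lower members were also called without knockout replicate 2. Across all genes, 1592, 1385 and 1360 genes were called without WT replicates 1, 2 and 3, against 3628 with all libraries. The replicate block gave 6 called members, 5 higher and 1 lower, and 31 called genes of the other lists, and changed no call of a member. It ended the call of Stx11 (adjusted p = 0.119). Library totals moved the median log2 fold change of all genes tested from -0.17 to -0.38 and cyclic loess moved it to -0.00094. Coding lengths were not used here, so the order per kb has no alternative. Depth limits Gzmb and Ear1 most, with 2 and 11 knockout reads.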
